A study of Mus musculus with 15 samples.

Results

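The genes described here are 49 parts of the machinery that copies DNA in S phase, taken by name from the 27803 gene names in the count tables, and all 49 had a row in the tables of all 15 mice. Origin licensing was represented by 10 genes, Mcm2, Mcm3, Mcm4, Mcm5, Mcm6, Mcm7, Cdc6, Cdt1, Orc1 and Orc6. Origin firing was represented by 8 genes, Mcm10, Cdc45, Gins1, Gins2, Gins3, Gins4, Ccne1 and Ccne2. The sliding clamp Pcna and its loader Rfc1, Rfc2, Rfc3, Rfc4 and Rfc5 made 6 genes, and 5 genes (Rpa1, Rpa2, Rpa3, Timeless and Tipin) coat single-stranded DNA or steady the fork. The polymerase and primase subunits were 9 genes, Pola1, Pola2, Prim1, Prim2, Pold1, Pold2, Pold3, Pole and Pole2. Fen1 and Lig1 finish the lagging strand, 6 genes (Rrm1, Rrm2, Tyms, Tk1, Dut and Ung) supply nucleotides or keep uracil out of DNA, and 3 genes serve chromatin assembly (Chaf1a and Chaf1b) or histone mRNA (Slbp).

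Origins are licensed before S phase, when the origin recognition complex, Cdc6 and Cdt1 load the ring-shaped MCM helicase onto DNA. Cyclin E kinase activity then lets Cdc45 and the GINS complex join the helicase, and polymerases that the Pcna ring holds on the template copy both strands behind it. In the early postnatal cerebellum these genes are used by the cerebellar granule neuron progenitors (CGNPs), which proliferate in response to Sonic hedgehog (SHH), and many of the genes are textbook targets of E2F transcription factors.

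Single cells were profiled by Drop-seq, in which beads tag each captured mRNA with a barcode of its cell and a unique molecular identifier (UMI). The 5 WT mice were untreated C57BL/6 animals whose cerebella were taken at P7, 7 days after birth. The 10 tumors were medulloblastomas of M-Smo mice (C57BL/6, Math1-Cre:SmoM2/EYFPloxP/loxP), in which Cre made in cells that have expressed Math1 switches on a constitutively active form of SMO. M-Smo mice received 3 daily doses of vehicle (5 mice) or of 75 mg/kg vismodegib, a SMO inhibitor (5 mice), and tumors were taken at P15, so that both tumor groups carried the same transgenes. WT cells were run on a PDMS device with no spike-in, and tumor cells on a glass device beside spiked-in cells of the human line HEK 293. Age, genotype, vehicle doses, device and spike-in therefore changed together between tumors and WT and cannot be told apart. Each replicate was a separate mouse, and the vehicle group served both as the reference for vismodegib and as the tumors set against WT.

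Of the barcodes deposited, 37946 cells were kept (7224 WT, 18293 vehicle and 12429 vismodegib), from tables of 2310474 to 17708677 UMIs per mouse, with medians of 1082.5 to 2597 UMIs per kept cell. No pair of libraries shared more than 13 barcodes. Cells were clustered with the 49 genes left out, and clusters were named from marker lists as CGNP-like cells in 4 stages. Node A-like cells were named for mitotic transcripts, Node B-like cells for SHH targets, Node C-like cells for early and Node D-like cells for late neuronal transcripts. The 12 mitotic markers, Mki67 and Top2a among them, summed to 9579 ± 769, 13112 ± 559.6 and 12984 ± 897 CPM (UMIs per 1000000 UMIs of the class, mean ± SD, n = 5) in Node A-like cells of WT, vehicle and vismodegib mice. They summed in Node B-like cells to 3673 ± 482, 3019 ± 475 and 4169 ± 895 CPM. Some names rested on thin support: tumor cluster 0 (Node B-like) and tumor cluster 2 (Node C-like) had none of their markers among their 10 leading genes, and WT cluster 0 (Node B-like) and tumor cluster 8 (Node D-like) were led by hemoglobin mRNAs. Cells with a hemoglobin UMI were 19.88% of WT cluster 0, where WT clusters ranged from 15.99% to 28.97%. They were 7.787% of tumor cluster 8, where tumor clusters ranged from 7.664% to 19.05%. Clusters took the name with the most markers among their 10 leading genes, and where names tied, as with none for clusters 0 and 2, the name with the highest mean enrichment of its markers. The 3 tumor clusters named Node D-like on this rule had a higher mean enrichment of other markers, neuron-like ones in clusters 5 and 7 and Node C-like and neuron-like ones in cluster 8. The 10 leading genes of tumor cluster 0 held no SHH marker and included Tcf19, Hells, Atad2 and Cdk2, which are known for roles in S phase. This cluster made 45.86% of vehicle and 70.12% of vismodegib Node B-like cells. In vismodegib tumors the stage was therefore mostly a cluster led by S phase genes, whatever its name. The clustering left out the 49 genes but kept such S phase genes, so the high replication level of Node B-like cells is a description and not independent of how the cells were grouped. A level summed over a class cannot tell fewer expressing cells from less mRNA per cell.

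Promoter sequences were read to see which motifs the genes share. RefSeq promoter windows on GRCm38.p6 matched 40 of the 49 genes (45 windows). No entry was matched for Ccne2, Gins1, Gins2, Gins4, Mcm4, Pole, Prim2, Rfc2 or Tipin. In the 250 bases before the start, the 7-base core of the E2F motif, searched on both strands as any of the runs TTCCCGC, then TTGGCGC, then TTCGCGC and then TTGCCGC, was present in 16 of the 40 genes (40%), against 9.01% of all 27025 genes with a window. The 8-base form with a further T in front was present in 8 genes (20%, against 2.157% of all genes), and every such match also holds a core. CCAAT was present in 23 genes (57.5%, against 37.49%), and TTTGAA or TTCGAA, the letters of the cell cycle homology region, in 7 genes (17.5%, against 19.55%). The core was searched after the matches of the 8-base form had been seen, and a match is a run of letters and not a shown binding site. By role, the core was present in 5 of 9 licensing, 1 of 4 firing, 1 of 5 clamp and loader, 2 of 4 single-stranded DNA and fork, 2 of 7 polymerase and primase, 1 of 2 lagging-strand, 2 of 6 nucleotide and 2 of 3 chromatin genes. Mcm6 held 4 matches, and Mcm5 and Pola1 held 3 each.

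Of the 18 genes described below whose response to vismodegib differed between stages, 17 had a window, and 6 of these held a core while 11 did not, beside 16 of all 40, and no relation between the core and the response is read from these counts. The last 100 bases before the start are shown for 5 of the 6 that hold one, to show where the core lies, and for Mcm3 as 1 of the 11 that hold none. Letters are given 5′ to 3′ on the strand of the gene, and capitals mark the E2F core on either strand.
Chaf1a, chr17:56040316-56040415, plus strand: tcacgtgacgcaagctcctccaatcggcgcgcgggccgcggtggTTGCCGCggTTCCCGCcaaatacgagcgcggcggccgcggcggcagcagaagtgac
Fen1, chr19:10203922-10204021, minus strand: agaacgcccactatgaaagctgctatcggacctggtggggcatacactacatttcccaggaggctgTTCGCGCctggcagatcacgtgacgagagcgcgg
Rrm1, chr7:102441595-102441694, plus strand: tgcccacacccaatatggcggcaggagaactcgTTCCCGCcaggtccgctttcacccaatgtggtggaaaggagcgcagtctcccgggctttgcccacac
Prim1, chr10:128015115-128015214, plus strand: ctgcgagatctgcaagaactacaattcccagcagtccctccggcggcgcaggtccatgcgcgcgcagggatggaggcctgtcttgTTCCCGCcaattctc
Rpa2, chr4:132768260-132768359, plus strand: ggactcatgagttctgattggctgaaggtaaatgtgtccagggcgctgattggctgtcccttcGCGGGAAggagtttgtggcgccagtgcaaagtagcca
Mcm3, chr1:20820313-20820412, minus strand: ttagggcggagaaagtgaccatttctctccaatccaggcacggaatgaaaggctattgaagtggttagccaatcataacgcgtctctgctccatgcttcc

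Summed over the 49 genes, replication mRNA was highest in Node B-like cells, next in Node A-like cells, and lowest in Node D-like cells in all 3 groups. In Node B-like cells of WT cerebella 1 to 5 the sum was 8839.6, 8349.9, 7712, 7841 and 7185 CPM. Vehicle tumors 1 to 5 held 8864, 7426, 8013, 8276 and 7892 CPM there, and vismodegib tumors 10111, 9402, 10301, 10455 and 10951 CPM. All vismodegib tumors lay above all vehicle tumors and all WT cerebella in this stage, while the vehicle and WT ranges overlapped. In Node A-like cells the means were 6642 ± 505 (WT), 6562 ± 241 (vehicle) and 6425 ± 760.2 CPM (vismodegib), with overlapping ranges. Node C-like cells held 2279 ± 189.6, 3311 ± 457 and 3691 ± 396 CPM, with every tumor above every WT cerebellum. Among the tumor clusters of this stage, cluster 13 held a mean of 7671 CPM in vehicle and 8859 CPM in vismodegib tumors. Clusters 4 and 6 held 1607 and 2020 CPM in vehicle and 1464 and 2260 CPM in vismodegib tumors. Cluster 13 made 4.852% of vehicle and 8.414% of vismodegib Node C-like cells, and cluster 4 made 23.67% and 52.23%. WT clusters 3 and 5 held 2646 and 2073 CPM, and the part of this mixture was not tested. Node D-like cells held 1671 ± 293, 1967 ± 258 and 1612 ± 126 CPM. The tumor values compare unlike mixtures there, since cluster 8, which held 2779 ± 650.5 CPM in vehicle and 3416 ± 1415 CPM in vismodegib tumors, made 52.46% of vehicle and 17.45% of vismodegib Node D-like cells. For the class as a whole, CGNP-like cells held 5413 ± 284, 6072 ± 511 and 5120.2 ± 628 CPM, and vismodegib overlapped vehicle through replicate 1 alone. These sums are descriptions and were not tested. Over the 49 genes, the stage with the highest mean was Node B-like for 39 genes in WT, 36 in vehicle and 48 in vismodegib mice.

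**Figure D1:**
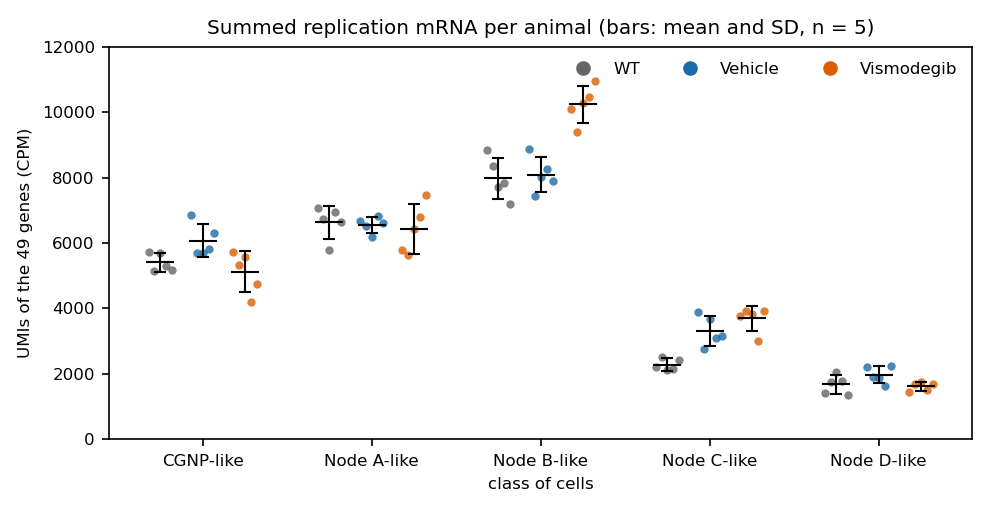
UMIs of the 49 genes in CPM (vertical axis, from 0) in each class of cells (horizontal axis) for each mouse, with points for WT, vehicle and vismodegib mice and bars for mean and SD (n = 5). In Node B-like cells the vismodegib tumors sit between 9402 and 10951 CPM, above the vehicle tumors at 7426 to 8864 CPM.

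Cells with replication mRNA were also counted. With each cell thinned to 500 UMIs, 36.1 ± 3.38% of WT, 41.3 ± 4.22% of vehicle and 30.02 ± 7.09% of vismodegib CGNP-like cells held at least 3 UMIs of the 49 genes (mean ± SD, n = 5). The same shares in Node B-like cells were 62.9 ± 3.02%, 58.6 ± 4.29% and 76.9 ± 2.50%. The share was higher in WT than in vehicle Node B-like cells although the summed level was lower, so no order was read between those groups. As a background, 1.33 ± 2.98% and 0.604 ± 0.834% of neuron-like tumor cells and 2.76 ± 4.81% of WT Purkinje-like cells, postmitotic neurons that should not replicate DNA, reached 3 UMIs. A single UMI separated the classes less, since 43.0% of neuron-like vehicle cells held one after thinning (79.1% before), against 78.7% of CGNP-like vehicle cells (94.98% before). Median depths were 886 to 2203 UMIs in neuron-like, 2241 to 8300 in Purkinje-like and 1038 to 2624 in CGNP-like cells.

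The gene with the highest mean CPM of each role in CGNP-like cells is given mouse by mouse. Dut, which removes dUTP from the nucleotide pool, stood at 529, 465, 519.96, 582 and 584 CPM in WT cerebella 1 to 5, at 499, 407, 376, 518 and 525 in vehicle tumors and at 467, 375, 447, 305 and 414 in vismodegib tumors. Pcna stood at 354, 378, 336, 497 and 445 CPM in WT, 342, 293, 371, 418 and 409 in vehicle and 259, 228, 482, 251 and 336 in vismodegib mice. All 3 groups overlapped for both genes, and vismodegib tumor 4 was the lowest mouse for Dut. Lig1, the ligase that seals Okazaki fragments, stood at 298, 220.3, 345, 291 and 216 CPM in WT, 595, 325, 403, 326 and 363 in vehicle and 366, 367, 295, 236 and 258 in vismodegib mice. Vehicle tumor 1 stood apart from the other vehicle tumors for Lig1. Mcm7, a subunit of the helicase, stood at 266, 247, 295, 222 and 237 CPM in WT, 331, 303, 300.3, 307 and 344 in vehicle and 289, 247, 304, 203 and 233 in vismodegib mice. Prim1, which makes the RNA primers, stood at 247, 189.8, 183, 202 and 160.3 CPM in WT, 211, 231, 173, 217 and 242 in vehicle and 163, 141, 149.6, 122 and 143 in vismodegib mice. Every vismodegib tumor was below every vehicle tumor for Prim1, and Mcm7 separated every vehicle tumor from every WT cerebellum. Tipin, a partner of Timeless at the fork, stood at 192, 198, 219, 198 and 207 CPM in WT, 184, 180.1, 129, 164 and 219.8 in vehicle and 139, 102, 126, 93.9 and 147 in vismodegib mice. Chaf1a, the large subunit of the histone chaperone CAF-1, stood at 91.4, 72.7, 55.9, 69.8 and 71.7 CPM in WT, 128, 115, 112, 112 and 124 in vehicle and 118, 112, 115, 83.5 and 90.9 in vismodegib mice. Tipin overlapped between vehicle and each other group and was lower in every vismodegib tumor than in any WT cerebellum, and Chaf1a was higher in every vehicle tumor than in any WT cerebellum. Gins2, a subunit of the GINS complex, stood at 96.7, 92.3, 50.2, 85.0 and 86.8 CPM in WT, 99.5, 107, 72.4, 148 and 136 in vehicle and 86.9, 57.2, 91.5, 56.5 and 116 in vismodegib mice, and the groups overlapped.

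Within each mouse the genes did not fall evenly from Node B-like to Node A-like cells. In all 15 mice, 15 of the 49 genes were lower in Node A-like than in Node B-like cells, and no gene was higher in all 15. The list comprised Ung, Cdc6, Chaf1b, Cdt1, Mcm2, Mcm3, Mcm4, Mcm5, Mcm6, Mcm7, Pcna, Rpa2, Lig1, Gins2 and Rfc3. Ung, the uracil glycosylase, had the lowest ratio, with a mean log2 ratio of Node A-like over Node B-like CPM of -1.16 ± 0.15 in WT, -2.76 ± 0.28 in vehicle and -3.21 ± 0.41 in vismodegib mice (SD, n = 5, 1 CPM added to each level). For Cdc6, the loader of the helicase, the ratios were -0.99 ± 0.11, -1.71 ± 0.37 and -2.26 ± 1.10. In vehicle tumors 13 of the 49 genes, of several roles, had their highest mean in Node A-like cells, Cdc45, Prim1, Rfc5 and Orc6 among them. The nucleotide genes Tyms, Dut and Ung were highest in Node B-like cells there. Both ribonucleotide reductase subunits and thymidine kinase were also among the 13. Their mean ratio in vehicle tumors was 0.44 ± 0.14 for Rrm1, 0.26 ± 0.40 for Rrm2 and 0.63 ± 0.28 for Tk1. In WT cerebella their mean CPM was also higher in Node A-like cells, at 270 against 232.8 (Rrm1), 299 against 269 (Rrm2) and 119.5 against 117.2 (Tk1). In vismodegib tumors this held for Tk1 (99.62 against 94.42) and not for Rrm1 or Rrm2. Rrm1, Tk1 and Rfc5 were higher in Node A-like cells of all 5 vehicle tumors. Over the 49 genes the median log2 ratio was -0.27 in WT, -0.15 in vehicle and -0.59 in vismodegib mice, and 17, 24 and 40 genes were lower in Node A-like cells of every mouse of the group. The stages were compared as a description, with no test and no share over all genes beside these counts. The counts are therefore not read as particular to the 49 genes.

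**Figure D2:**
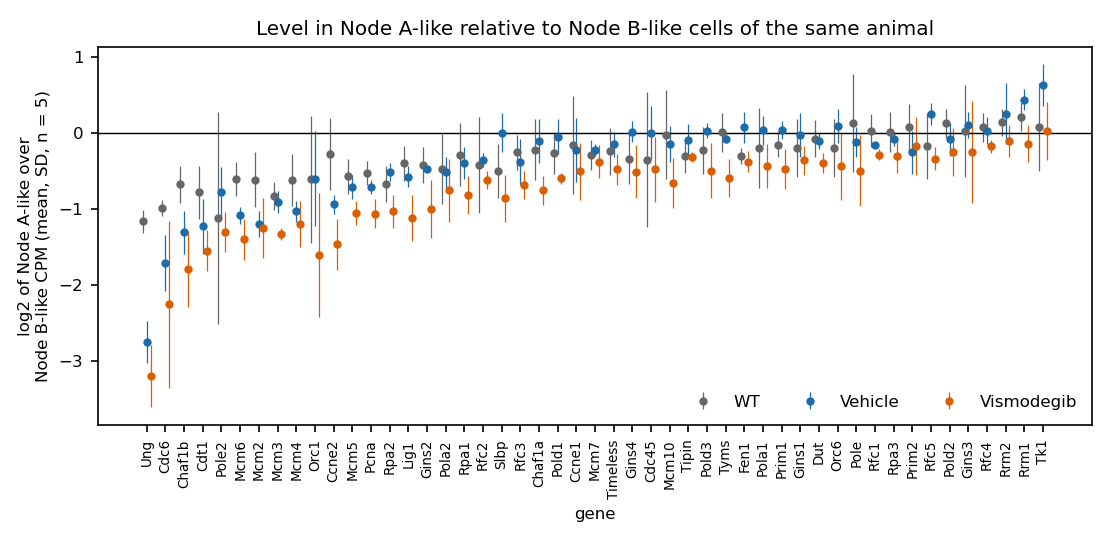
Mean log2 ratio of Node A-like to Node B-like CPM in the same mouse (vertical axis) for each of the 49 genes (horizontal axis), with SD as bars (n = 5) and 1 color per group. Ung lies lowest, at -1.16 in WT, -2.76 in vehicle and -3.21 in vismodegib mice, and most vismodegib points lie below 0.

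Vismodegib was then set against vehicle, to ask whether inhibition of SMO changes replication mRNA in the population and in each stage. In CGNP-like cells as a whole, 5 of the 49 genes were lower in vismodegib tumors and 0 were higher (edgeR's quasi-likelihood test, Benjamini-Hochberg adjusted p under 0.05 over all genes tested), while over all 12429 genes 4.65% were called lower and 8.42% higher. Of the 49, 44 had a negative difference, with a median log2 difference of -0.23 against 0.00 over all genes. The 5 genes were Tk1 at -0.90 ± 0.19, Cdc45 at -0.65 ± 0.16, Prim2 at -0.58 ± 0.16, Prim1 at -0.58 ± 0.13 and Tipin at -0.53 ± 0.16 (log2 difference ± SE), with adjusted p of 0.00755, 0.0148, 0.0244, 0.00767 and 0.049 in edgeR. Tk1, which salvages thymidine, stood at 120.3, 93.5, 64.2, 69.4 and 101 CPM in vehicle and 45.6, 51.2, 34.3, 42.3 and 64.3 CPM in vismodegib tumors. Cdc45, which joins the helicase at firing, stood at 58.7, 51.2, 42.0, 52.6 and 66.8 CPM in vehicle and 37.5, 42.8, 32.0, 31.9 and 29.9 CPM in vismodegib tumors. Prim2, the partner of Prim1 in primase, stood at 45.5, 42.0, 34.8, 38.2 and 49.7 CPM in vehicle and at 24.7, 26.0, 35.7, 26.0 and 27.9 CPM in vismodegib tumors. Prim1 and Tipin are given mouse by mouse above, and of these 5 genes Prim1 alone separated all vehicle from all vismodegib tumors. Among the 44 genes not called, Mcm2 had the smallest SE, at 0.00 ± 0.12. The make-up of the class moved with the treatment. Node D-like cells, whose sum was the lowest, were 1300 of 17178 CGNP-like cells in vehicle and 4481 of 11036 in vismodegib tumors. Node B-like cells, whose sum was the highest, were 7841 in vehicle and 2082 in vismodegib tumors. The part of these shifts in the 5 calls was not tested. Without vehicle tumor 2 or 5, or vismodegib tumor 1 or 4, 3 genes were called. For those fits no share over all genes is given, so the drop is not read as particular to the 49 genes. Without the clusters led by hemoglobin mRNA 4 were called lower, with 4.40% of all genes. Over all kept cells 12 were called lower and 0 higher, with 4.69% of all genes called lower, where CGNP-like cells were 17178 of 18293 vehicle and 11036 of 12429 vismodegib cells.

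In Node A-like cells no gene of the 48 that could be fitted was called, whereas 0.668% of all 9437 genes were called higher and 1.40% lower. Orc1 was too low to be fitted in this stage, at 18.8, 5.24, 5.11, 5.55 and 6.58 CPM in vehicle and 2.39, 6.15, 3.59, 4.18 and 11.1 CPM in vismodegib tumors. DESeq2 also called 0, and 4 genes, named after their values were seen, had an unadjusted p under 0.05, a smaller share than the 11.54% of all genes: Mcm2 at 0.58 ± 0.20, Prim1 at -0.45 ± 0.17, Orc6 at -0.40 ± 0.17 and Tk1 at -0.53 ± 0.24. Differences were positive for 22 and negative for 26 genes, with a median of -0.03. Mcm7 had the smallest SE, at 0.03 ± 0.14. The summed level was 6667, 6531, 6171, 6813 and 6629 CPM in vehicle and 5795, 5621, 6419, 6805 and 7485 CPM in vismodegib tumors, so that the vismodegib values enclosed the vehicle values.

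In Node B-like cells 6 of the 49 genes were higher with vismodegib and 0 were lower, against 0.939% and 1.96% of all 9695 genes. The difference was positive for 47 genes, and its median was 0.35 against 0.00 over all genes. The 12 mitotic markers summed in the same cells to 3019 ± 475 CPM in vehicle and 4169 ± 895 CPM in vismodegib tumors, and their part in the result was not tested. Rpa1, a subunit of the complex that coats single-stranded DNA, stood at 123, 73.4, 101, 79.2 and 85.7 CPM in vehicle and 159, 194, 136, 135 and 123 CPM in vismodegib tumors, a log2 difference of 0.71 ± 0.16 (SE, edgeR adjusted p = 0.025). Mcm3, of the helicase, stood at 220.3, 196, 226, 225 and 189.7 CPM in vehicle and at 331, 294, 355, 298 and 359 CPM in vismodegib tumors, a difference of 0.64 ± 0.13 (edgeR adjusted p = 0.0141). Mcm3 did not overlap between the groups, and for Rpa1 the lowest vismodegib and the highest vehicle tumor met at 123 CPM. Mcm5 stood at 192, 128, 184, 174 and 171 CPM in vehicle and at 257, 263, 307, 247 and 235 CPM in vismodegib tumors, a difference of 0.63 ± 0.14 (edgeR adjusted p = 0.0248). Rrm2, the regulated subunit of ribonucleotide reductase, stood at 226, 178, 160.03, 191 and 209 CPM in vehicle and at 299, 265, 277, 285 and 336 CPM in vismodegib tumors, a difference of 0.61 ± 0.14 (edgeR adjusted p = 0.0248). Chaf1a stood at 171, 136, 144, 166 and 148 CPM in vehicle and at 220.2, 216, 249.8, 246 and 212 CPM in vismodegib tumors, a difference of 0.59 ± 0.14 (edgeR adjusted p = 0.0261). Mcm5, Rrm2 and Chaf1a each separated all vismodegib from all vehicle tumors. The remaining called gene was Fen1, the flap nuclease, at 0.54 ± 0.14, and Mcm6 had the smallest SE of the 43 genes not called, at 0.22 ± 0.12. The count changed when single mice were left out. It was 1 without vehicle tumor 2, 2 without vehicle tumor 5 or vismodegib tumor 1, and 3 without vismodegib tumor 3. The median difference was between 0.30 and 0.40 in the 10 fits that left out 1 mouse. No share over all genes is given for these fits, so the drops are not read as particular to the 49 genes.

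The higher level in Node B-like cells was not spread evenly over the clusters of that stage. Tumor cluster 0, led by Tcf19 and other S phase genes and by no SHH marker, made 45.86% of vehicle and 70.12% of vismodegib Node B-like cells, and tumor cluster 1, led by Hes1, made 54.14% and 29.88%. In cluster 0 the summed level was 9991 ± 304 (range 9714 to 10468) CPM in vehicle and 10394 ± 687 (range 9435 to 11252) CPM in vismodegib tumors, which overlapped. In cluster 1 it was 5919 ± 693 (range 5304 to 7061) CPM in vehicle and 9582 ± 406 (range 9184 to 10211) CPM in vismodegib tumors, with no overlap. Fitted alone after these values had been seen, cluster 0 gave 0 of 49 genes called higher (0.374% of all genes; 7 genes with an unadjusted p under 0.05, 4 higher and 3 lower, a larger share than the 9.16% of all genes; DESeq2 not run) and a median difference of 0.05. Of the 47 genes not too low to be fitted in cluster 1, 14 were called higher (1.45% of all genes), with a median difference of 0.72. Among these 14, Rrm2 at 1.36 ± 0.26, Mcm5 at 1.15 ± 0.20 and Chaf1a at 1.14 ± 0.17 had the largest differences. Mitotic transcripts moved with the level in cluster 1, where the 12 markers summed to 742 ± 118 CPM in vehicle and 1258 ± 306 CPM in vismodegib tumors, and the 11 SHH markers to 5214 ± 313 and 3408 ± 340.4 CPM. In cluster 0 the mitotic markers summed to 5012 ± 860.02 and 5051 ± 1274 CPM, and the SHH markers to 4312 ± 211 and 3119 ± 411 CPM. Their part in the result was not tested.

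**Figure D3:**
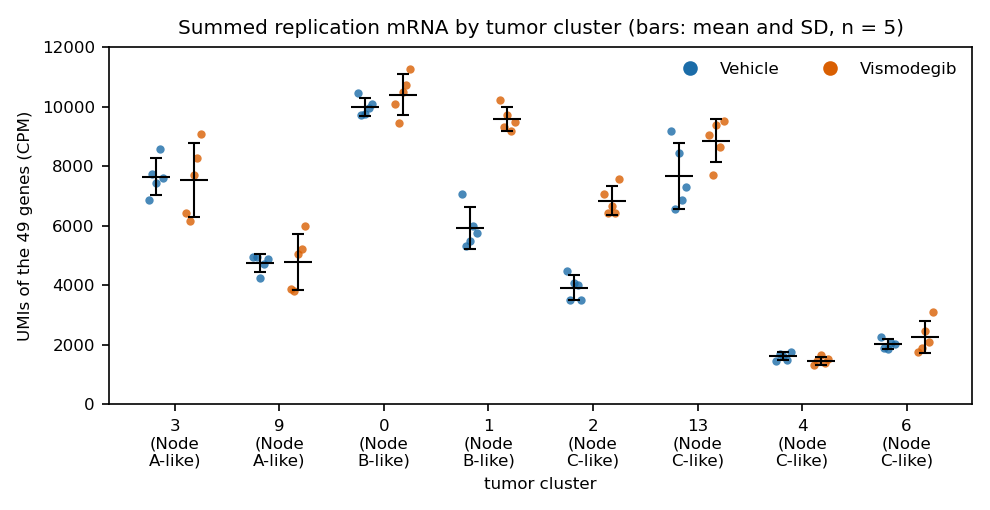
UMIs of the 49 genes in CPM (vertical axis, from 0) in 8 tumor clusters (horizontal axis, with the stage of each) for each vehicle and vismodegib tumor, with bars for mean and SD (n = 5). Clusters 1 and 2 show vismodegib tumors at 9184 and 6424 CPM or more, above all vehicle tumors, whereas clusters 0, 3, 9, 13, 4 and 6 overlap.

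The response of Node B-like cells was compared with that of Node A-like cells in 1 model with the tumor as a block. Of the 49 genes, 18 had a difference called higher in Node B-like cells and 0 the opposite, against 1.64% and 0.498% of all 11055 genes. The difference was positive for 48 of 49 genes, with a median of 0.41 against 0.01 over all genes. The mixture of Node B-like cells moved with treatment, since cluster 0 made 45.86% of them in vehicle and 70.12% in vismodegib tumors. In Node A-like cells cluster 3 made 70.59% and 68.28%. The part of these mixtures in the 18 calls was not tested. Every role was represented: 5 of 6 nucleotide genes (Rrm1, Tyms, Dut, Tk1 and Rrm2), 3 of 9 polymerase and primase genes (Prim1, Pold1 and Pold3), both lagging-strand genes, 2 of 3 chromatin genes (Chaf1a and Slbp), 2 of 10 licensing genes (Mcm3 and Orc6), 2 of 6 clamp and loader genes (Pcna and Rfc5), and 1 gene each of firing (Gins4) and single-stranded DNA (Rpa2). Among the 18, the largest difference was that of Slbp, which binds the stem-loop of histone mRNA, at 0.76 ± 0.16 (log2 ± SE, edgeR adjusted p = 0.00222). It stood at 75.8, 46.0, 57.9, 42.0 and 56.2 CPM in vehicle and 32.3, 57.5, 135, 107 and 92.8 CPM in vismodegib Node B-like cells, and at 63.7, 51.4, 54.5, 54.8 and 49.4 CPM in vehicle and at 16.7, 21.5, 84.3, 65.3 and 58.7 CPM in vismodegib tumors in Node A-like cells. Vismodegib tumors 1 and 2 were the lowest for Slbp among vismodegib tumors in both stages, and the groups overlapped. Chaf1a followed at 0.70 ± 0.12 (edgeR adjusted p = 9.88e-05), with 122, 164, 147, 134 and 146 CPM in vehicle and 131, 132, 122, 139.96 and 151 CPM in vismodegib Node A-like cells. Rfc5, of the clamp loader, was at 0.64 ± 0.13 (edgeR adjusted p = 0.00222). Rfc5 stood in Node B-like cells at 69.3, 78.4, 63.2, 81.6 and 72.1 CPM in vehicle and at 115, 89.4, 76.9, 115 and 92.8 CPM in vismodegib tumors, and in Node A-like cells at 88.3, 99.0, 65.6, 90.8 and 94.7 CPM in vehicle and at 76.4, 78.4, 61.0, 96.6 and 73.9 CPM in vismodegib tumors. Chaf1a and Rfc5 overlapped between treatments in Node A-like cells, and Rfc5 overlapped in Node B-like cells too. Pold1, the catalytic subunit of polymerase delta, was at 0.60 ± 0.14 (edgeR adjusted p = 0.0109). In Node B-like cells Pold1 stood at 96.2, 47.4, 85.3, 46.3 and 53.7 CPM in vehicle and 115, 161, 88.4, 84.5 and 85.6 CPM in vismodegib tumors. Pold1 levels in Node A-like cells were 70.9, 53.3, 87.8, 46.4 and 53.4 CPM in vehicle and 76.4, 115, 55.6, 53.8 and 55.3 CPM in vismodegib tumors. Rrm1, the large subunit of ribonucleotide reductase, was at 0.58 ± 0.09 (edgeR adjusted p = 3.53e-05). In Node B-like cells Rrm1 stood at 321, 183, 234, 189.96 and 213 CPM in vehicle and 311, 332, 299.8, 247 and 313 CPM in vismodegib tumors. Rrm1 levels in Node A-like cells were 395, 273, 284, 268 and 311 CPM in vehicle and 213, 294, 298, 240.2 and 330.2 CPM in vismodegib tumors. Levels of both genes overlapped between treatments in both stages. The test set Node B-like against Node A-like cells of the same tumor. Overlap of levels within a stage, for these genes as for Slbp, Chaf1a and Rfc5, therefore does not describe the tested difference. Rfc1 had the smallest SE of the 31 genes not called, at 0.15 ± 0.07. Without vehicle tumor 5, 10 genes were called, and with sums thinned to the lowest total 4 were called. No share over all genes is given for these fits, so neither drop is read as particular to the 49 genes.

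**Figure D4:**
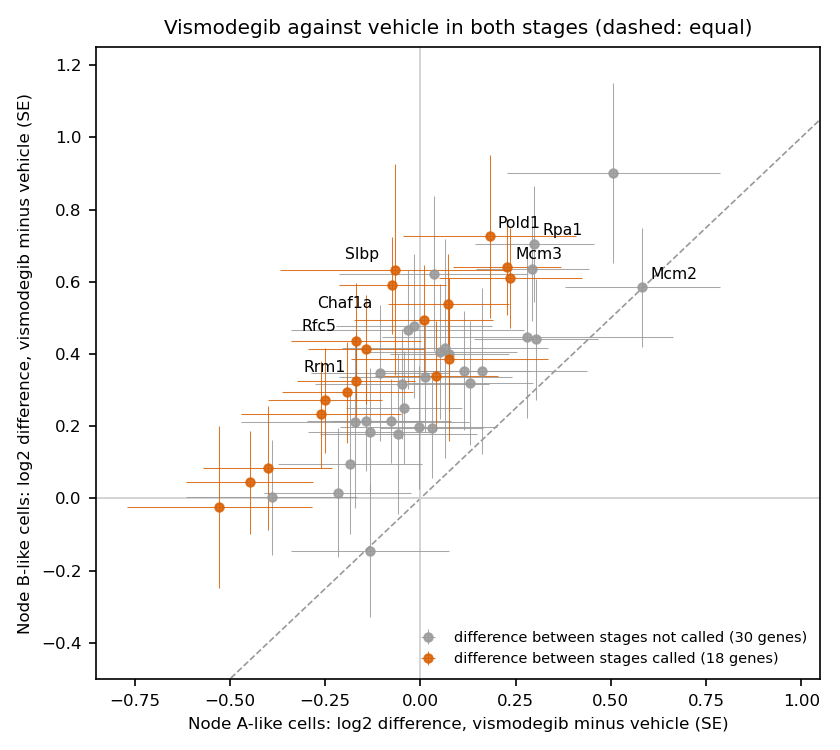
Log2 difference of vismodegib minus vehicle for 48 genes in Node A-like (horizontal axis) and Node B-like cells (vertical axis), with SE as bars, the 18 genes called for the difference between stages in color, and a dashed line where both would be equal. Most genes lie above the dashed line, and Slbp and Chaf1a, at 0.76 and 0.70, have the largest called differences between the stages.

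In Node C-like cells 2 of 48 fitted genes were higher with vismodegib and 0 were lower, against 0.813% and 1.02% of all 9836 genes. Ccne2, a cyclin E, stood at 22.3, 16.1, 36.7, 13.5 and 15.5 CPM in vehicle and 42.4, 44.0, 45.0, 57.9 and 38.1 CPM in vismodegib tumors, with no overlap, a log2 difference of 1.18 ± 0.26 (SE, edgeR adjusted p = 0.0293). Rrm2 stood at 77.0, 40.2, 53.1, 45.8 and 48.0 CPM in vehicle and at 103, 111, 97.7, 62.4 and 84.5 CPM in vismodegib tumors, with vismodegib tumor 4 inside the vehicle range, a difference of 0.79 ± 0.19 (edgeR adjusted p = 0.0426). Mcm7 had the smallest SE of the 46 genes not called, at -0.09 ± 0.13. Leaving out vehicle tumor 2, 4 or 5 or vismodegib tumor 1 or 3 left 0 called (edgeR). Leaving out vehicle tumor 3 or vismodegib tumor 2, 4 or 5 left 1. These drops are not read as particular to the 49 genes, since no share over all genes is given for them. With all mice, 5 of the 48 genes had an unadjusted p under 0.05, a smaller share than the 12.76% of all genes, and DESeq2 called 2. The clusters differed here as well. Tumor cluster 2, which made 47.69% of vehicle and 21.74% of vismodegib Node C-like cells, held 3917 ± 416 (range 3498 to 4478) CPM of the 49 genes in vehicle and 6833 ± 489 (range 6424 to 7568) CPM in vismodegib tumors, with no overlap. Fitted alone after these values had been seen, 17 of the 43 genes not too low to be fitted were called higher (0.808% of all genes), with a median of 0.80, and the largest differences were Ccne2 at 2.06 ± 0.34 and Rrm2 at 1.62 ± 0.23. Clusters 4, 6 and 13 alone gave 0 called, which is not read as a result, since no share over all genes is given for these fits. The joint clustering of all mice turned the difference of Rrm2 to -0.18.

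A division of the tumors that the labels do not give also moved with some of the genes. Vehicle tumors 1 and 3 and vismodegib tumors 1, 2 and 3 form one set, known from earlier results of these data. Pole, the catalytic subunit of polymerase epsilon, stood in CGNP-like cells at 53.8, 23.8, 43.0, 19.7 and 19.0 CPM in vehicle tumors 1 to 5 and at 34.2, 36.7, 32.9, 14.3 and 19.5 CPM in vismodegib tumors 1 to 5, so that all 5 tumors of the set lay above the other 5. With this division as a covariate, 11 in place of 5 genes were called lower in CGNP-like cells, where 6.80% of all genes were called lower in place of 4.65%. Of the Node B-like values 12 in place of 6 were called higher, with 2.53% of all genes in place of 0.939%. In Node A-like cells 1 gene, Mcm2, was called higher, with 1.57% of all genes. The set held 2 of the 5 vehicle and 3 of the 5 vismodegib tumors.

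Vehicle tumors were set against WT cerebella to compare tumor CGNPs with their normal counterparts. In CGNP-like cells 13 of the 49 genes were higher and 3 lower in vehicle tumors, against 21.3% and 23.3% of all 12586 genes. The 13 genes make a slightly larger share of the 49 than the calls in that direction make of all genes, and the 3 genes a smaller share. The median difference was 0.21 against 0.05 over all genes. The make-up of the class differed between the groups, since Node D-like cells were 996 of 5060 WT and 1300 of 17178 vehicle CGNP-like cells, and Node B-like cells, whose sum was the highest, 1828 and 7841. Its part in the 13 and 3 calls was not tested, and within Node A-like cells the median difference was -0.04. The genes called higher were 5 polymerase subunits (Pola2, Pold1, Pold2, Pold3 and Pole), Mcm2, Mcm6, Cdc45, Gins4, Rfc2, Rpa2, Timeless and Chaf1a, and those called lower were Slbp, Orc6 and Rfc3. Slbp stood at 95.8, 85.1, 129, 113 and 82.3 CPM in WT and 62.1, 41.6, 48.5, 35.7 and 46.4 CPM in vehicle mice, a log2 difference of -1.21 ± 0.18 (SE, edgeR adjusted p = 8.46e-05). Pole stood at 18.4, 16.7, 11.4, 15.6 and 17.7 CPM in WT against the vehicle values above, a difference of 0.87 ± 0.29 (edgeR adjusted p = 0.0228). Slbp and Pole did not overlap between vehicle and WT mice. For Pole the lowest vehicle tumor was at 19.0 CPM and the vehicle median at 23.8 CPM, beside 18.4 CPM in the highest WT cerebellum. Its highest vehicle values were those of tumors 1 and 3, which belong to the set described above. The part of that division in the difference was not tested. Gins4, of the GINS complex, stood at 53.4, 51.6, 33.1, 28.8 and 29.2 CPM in WT and at 72.1, 77.0, 58.0, 71.8 and 82.2 CPM in vehicle mice, a difference of 0.79 ± 0.19 (edgeR adjusted p = 0.00289). Cdc45 stood at 51.8, 32.7, 22.7, 26.2 and 15.9 CPM in WT, a difference of 0.74 ± 0.24 (edgeR adjusted p = 0.0198). Rfc2, of the clamp loader, stood at 99.2, 90.9, 87.1, 61.9 and 56.7 CPM in WT and at 159, 126, 141, 135 and 138 CPM in vehicle mice, a difference of 0.73 ± 0.16 (edgeR adjusted p = 0.00154). Gins4 and Rfc2 did not overlap between the groups, and Cdc45 did. Mcm7 had the smallest SE of the 33 genes not called, at 0.23 ± 0.13. Without the clusters led by hemoglobin mRNA 21 genes were higher and 2 lower, against 20.9% and 23.0% of all genes. That fit dropped WT cluster 0, at 8048 ± 748 CPM of the 49 genes, and tumor cluster 8, at 2779 ± 650 CPM in vehicle tumors. A cluster of high level thus left the WT cells and a cluster of low level the vehicle cells, so this count is not read as a check of the calls. Leaving out 1 mouse gave 11 to 20 calls, with no share over all genes given. Over all kept cells, whatever their class, 26 genes were higher and 3 lower, against 23.0% and 25.0% of all genes. CGNP-like cells were 5060 of the 7224 WT and 17178 of the 18293 vehicle cells kept, and the part of this difference in the count was not tested.

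In Node A-like cells more of the genes were lower than higher, with 5 of 48 genes higher and 13 lower in vehicle tumors, against 17.0% and 18.1% of all 8992 genes. The median difference was -0.04 against 0.05 over all genes. The class was a different mixture in each group, since WT Node A-like cells were 1 cluster, led by Ube2c, Cdc20 and Tuba1c, and vehicle Node A-like cells were 70.59% tumor cluster 3, led by Esco2, Pbk and Kif11, and 29.41% tumor cluster 9, led by Ccnb1, Ube2c and Aspm. In vehicle tumors the 49 genes summed to 7651 ± 619 CPM in cluster 3 and 4743 ± 304 CPM in cluster 9, and the part of this mixture in the calls was not tested. Gins4, Chaf1a, Rfc2, Timeless and Rpa2 were higher, as they were in CGNP-like cells. The genes called lower included 4 of licensing (Cdc6, Mcm3, Mcm4 and Orc6), both cyclins E, Pcna and Rfc3, 3 of nucleotide supply and uracil removal (Ung, Dut and Rrm2), and Slbp and Chaf1b. Ung stood at 46.8, 44.9, 34.1, 38.9 and 29.0 CPM in WT and 15.9, 17.1, 17.9, 25.6 and 10.6 CPM in vehicle mice, a log2 difference of -1.33 ± 0.27 (SE, edgeR adjusted p = 0.000832). Ccne2 stood at 113, 47.7, 78.0, 98.7 and 62.9 CPM in WT and at 50.6, 40.5, 49.4, 39.5 and 29.0 CPM in vehicle mice, a difference of -1.15 ± 0.23 (edgeR adjusted p = 0.000767). WT and vehicle values did not overlap for Ung and overlapped for Ccne2 through WT cerebellum 2. Slbp stood at 98.9, 84.2, 117, 132 and 111 CPM in WT, a difference of -1.13 ± 0.18 (edgeR adjusted p = 6.95e-05). Cdc6 stood at 25.4, 30.9, 34.1, 29.2 and 26.6 CPM in WT and at 15.9, 14.3, 16.2, 19.4 and 12.8 CPM in vehicle mice, a difference of -0.99 ± 0.26 (edgeR adjusted p = 0.00569). Rfc3 stood at 166, 174, 224, 254 and 220.2 CPM in WT and at 127, 147, 107, 134 and 130.1 CPM in vehicle mice, a difference of -0.81 ± 0.17 (edgeR adjusted p = 0.000774). Slbp, Cdc6 and Rfc3 were lower in every vehicle tumor than in every WT cerebellum. Mcm7 had the smallest SE of the 30 genes not called, at 0.06 ± 0.13. The mitotic markers of the class had a higher mean level in vehicle than in WT mice, as given with the stages above, and their part in these differences was not tested. Leaving out 1 mouse gave 12 to 18 calls, and sums thinned to the lowest total gave 7, with no share over all genes given for either.

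**Figure D5:**
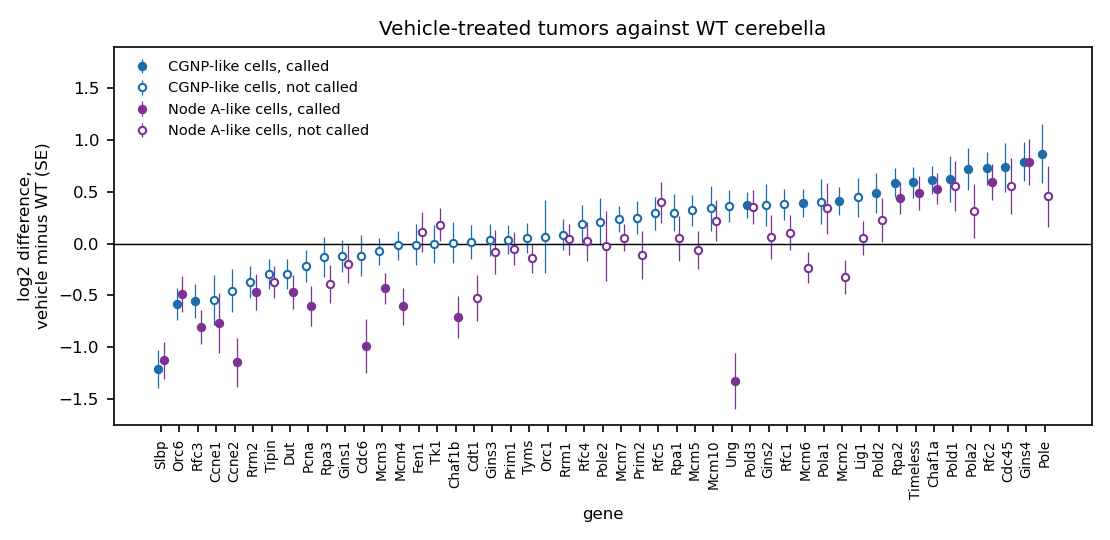
Log2 difference of vehicle minus WT (vertical axis, SE as bars) for each gene (horizontal axis) in CGNP-like and Node A-like cells, with filled points for genes called at an adjusted p under 0.05 in edgeR. Slbp is lowest in CGNP-like cells at -1.21, Ung is lowest in Node A-like cells at -1.33, and Pole is highest in CGNP-like cells at 0.87.

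A further 53 replication genes outside the 49, such as chromatin, repair and checkpoint factors of S phase, were read in the same fits. For the difference between stages 14 of 52 were called higher in Node B-like cells and 0 the opposite, against 1.64% and 0.498% of all genes. Largest among them were Chtf18 at 0.85 ± 0.20, E2f7 at 0.84 ± 0.20 and Asf1b at 0.75 ± 0.18 (log2 difference ± SE), which load the clamp at cohesion sites, repress E2F targets and hand over histones. With vismodegib 4 of 52 were higher in Node B-like cells, led by E2f2 at 1.14 ± 0.21, Mcm8 at 0.76 ± 0.19 and Nasp at 0.67 ± 0.15, against 0.939% of all genes. In Node C-like cells 1 of 49 was higher, E2f2 at 1.46 ± 0.29, against 0.813% of all genes. In CGNP-like cells 0 of 53 were called by edgeR (9 with an unadjusted p under 0.05, a smaller share than the 25.52% of all genes, DESeq2 2), and in Node A-like cells 0 of 52 (4, beside 11.54% of all genes, and 0). Against WT, vehicle CGNP-like cells had 11 of 53 higher and 3 lower, where 21.3% and 23.3% of all genes were called, so that the share called higher was near that of all genes, the highest being E2f1 at 1.32 ± 0.28, Top1 at 1.22 ± 0.23 and Chtf18 at 1.09 ± 0.23. Vehicle Node A-like cells had 8 of 52 higher and 6 lower, where 17.0% and 18.1% of all genes were called, again near or below the share of all genes, the highest being Top1 at 1.10 ± 0.22, Chtf18 at 1.06 ± 0.29 and Orc5 at 0.96 ± 0.28.

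Some counts could hold reads of a neighbor. In GENCODE M21 all 49 genes were listed, and 3 share exons on the same strand with another gene (Mcm7 with Mir25 and Mir93, and Pole2 and Rpa1 with predicted genes). Exons of 16 genes lie opposite a gene on the other strand, and in 8 of them the shared part is within 1000 bases of the 3′ end that Drop-seq reads. These 8 were Mcm7, Gins2, Ccne2, Rfc2, Rfc4, Rfc5, Fen1 and Chaf1a, of which Ccne2, Rfc2, Rfc5, Fen1 and Chaf1a carry calls above. Whether the counting used strand is not stated in the sources used here, so these values are uncertain to that extent. Annotated pseudogenes named after Tyms and Pcna make those genes uncertain too.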

How the data were processed

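Drop-seq gene tables of 15 mice were used, in which the authors deposited raw UMI counts per gene and cell, made with Drop-seq Tools. The submitters' processing notes name bcl2fastq 2.18, STAR 5.4b, Seurat 2.3.0, mm10 and hg19. Strand use in counting is not stated in the sources used here. A cell was kept if it held no fewer than 500 UMIs and 500 genes and lay within 5 SD over the median for both. The same upper limit was set on the mitochondrial share of UMIs. The upper limits on UMIs and genes were the only step against doublets. WT and tumor cells were clustered apart (Louvain, resolution 0.8, 30 neighbors) with the 49 genes, 53 other replication genes and histone genes held out, and clusters were named from marker lists. An erythroid list was dropped from the naming after its names had been seen. Members and lists were chosen with earlier results of these data known. Counts were summed per mouse and class and tested with edgeR's quasi-likelihood test (TMM, filterByExpr, Benjamini-Hochberg adjusted p under 0.05 over all genes tested), which was tested on simulated data. Each SE is the absolute log2 difference over the square root of F. CPM divides by all UMIs of the class. Values in every mouse are given for the gene of highest mean CPM of each role and for up to 5 called genes of largest change per comparison, and the gene of smallest SE is named among those not called. Of other replication genes, the 3 called with the largest change are named. DESeq2, RLE factors, other filters, clusterings, cell sets, thinned sums and leaving out each mouse were alternatives. The tests ran in edgeR 4.0.16, DESeq2 1.42.0 and limma 3.58.1 (R 4.3.3), and the clustering in Python 3.11 with igraph 0.11.9, scikit-learn 1.9.0, pandas 2.3.3, scipy 1.17.1 and numpy 2.4.6.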

Additional observations from a re-analysis of the deposited data

Results flagged for a closer look

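Within groups of 5 mice, 95 sets of values were tested with Dixon's criterion, which chance passes in about 1 in 20 groups, and 3 stood out. The summed level of the 49 genes in Node C-like cells was 2994 CPM in vismodegib tumor 4, against 3782 to 3933 CPM in the other vismodegib tumors. Gins2 in CGNP-like cells was 50.2 CPM in WT cerebellum 3, and the next lowest WT value was 85.0 CPM. Lig1 in CGNP-like cells was 595 CPM in vehicle tumor 1, and the next highest vehicle value was 403 CPM.

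For 18 genes the response to vismodegib differed between Node B-like and Node A-like cells in edgeR's test of the difference. The log2 difference was 0.76 for Slbp, 0.70 for Chaf1a, 0.64 for Rfc5, 0.60 for Pold1 and 0.58 for Rrm1. It was 0.54 for Tk1, 0.53 for Gins4, 0.52 for Fen1, 0.51 for Lig1 and 0.50 for Rpa2. Orc6, Tyms and Prim1 each stood at 0.48, Pold3 at 0.46, Mcm3 at 0.44, Rrm2 at 0.41, Pcna at 0.34 and Dut at 0.31.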

How the results depend on the processing

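Alternatives changed the counts of genes called as follows, and the cause was not tested except where fewer cells or mice enter by construction. For vismodegib against vehicle in CGNP-like cells (5 called), DESeq2 gave 8, the division of the tumors as a covariate 11, all kept cells 12, and leaving out 1 mouse 3 to 5. In Node A-like cells (0 called) the joint clustering of 15 mice, the division and cluster 9 alone gave 1 each, which was Mcm2, and leaving out 1 mouse gave 0. In Node B-like cells (6 called) the division gave 12, thinned sums 2, cluster 0 alone 0 and cluster 1 alone 14, and leaving out 1 mouse 1 to 7. In Node C-like cells (2 called) cells with at least 1000 UMIs and thinned sums gave 1 each. Leaving out a cluster of this stage led by S phase genes (not tumor cluster 0, which is Node B-like) also gave 1. The joint clustering and clusters 13, 4 and 6 alone gave 0, cluster 2 alone 17, and leaving out 1 mouse 0 to 2. Vehicle against WT gave 29 (26 higher and 3 lower, beside 23.0% and 25.0% of all genes) over all kept cells in place of 16, and 11 to 20 without 1 mouse. In Node A-like cells thinned sums gave 7 in place of 18, and leaving out 1 mouse 12 to 18. For the difference between stages (18 called) thinned sums gave 4 and leaving out 1 mouse 10 to 22. The fits of single clusters, without the Node C-like cluster led by S phase genes and without the clusters led by hemoglobin mRNA were added after seeing the data.

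Some differences changed sign. Mcm2 in CGNP-like cells went from 0.00 to -0.0271 (DESeq2), -0.0164 (RLE factors), -0.0657 (no filter) and -0.13 (all kept cells), and from -0.0547 to 0.0546 without 1 mouse. Mcm7 in Node A-like cells ranged from -0.0623 to 0.0801 without 1 mouse. In Node C-like cells Mcm7 went from -0.09 to 0.49 in cluster 2 alone. Against WT, Mcm7 went to -0.0182 at resolution 1.2. Rrm2 in Node C-like cells went to -0.18 in the joint clustering.

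Summed levels moved by more than 1 SD as follows. With the share averaged over cells, CGNP-like levels were 4662 (WT), 5440.3 (vehicle) and 4221 CPM (vismodegib), vehicle Node B-like 7548, and vismodegib Node C-like 3068 and Node D-like 1435 CPM. WT CGNP-like cells with at least 1000 UMIs held 5769 CPM. At resolution 1.2, WT Node C-like cells held 2469, and vehicle and vismodegib Node D-like cells 1639 and 1366 CPM. In the joint clustering, Node C-like levels were 2631 and 2126 and Node D-like levels 1349 and 1242 CPM (vehicle and vismodegib). The joint clustering was not usable for WT cells and was not run for comparisons with WT.

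Replicate numbers were not used to pair the mice, since not every correlation of same-numbered mice was over 0.1. The range was -0.25 to 0.46, WT cerebella included, and such a limit cannot exclude a pairing. Same-numbered vehicle and vismodegib tumors carry neighboring serial numbers, and the paper injected littermates with drug or vehicle. With a replicate block, the CGNP-like cells gave 4 called genes, the Node A-like 0, the Node B-like 5 and the Node C-like 2, and 17 and 12 against WT in CGNP-like and Node A-like cells.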

Other observations

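In classes not named CGNP-like, the summed level of the 49 genes in WT, vehicle and vismodegib mice was 2898 ± 752, 3016 ± 795 and 1961 ± 575 CPM in microglia-like cells (mean ± SD, n = 5). Oligodendrocyte-like cells held 2160 ± 692, 2376 ± 409 and 1889 ± 778 CPM, and astrocyte-like cells 2021 ± 392, 1694 ± 538 and 1406 ± 246 CPM. Vascular fibroblast-like cells held 1723 ± 665, 1933 ± 318 and 1184 ± 338 CPM. GABAergic-like cells, named in WT cerebella alone, were the highest of these classes at 4432 ± 377 CPM. Their WT cluster 7 held 6612 ± 541 CPM, near WT Node A-like cells at 6642 ± 505 CPM, and their WT cluster 6 held 2029 ± 214 CPM. Endothelial-like cells, also named in WT cerebella alone, held 2731 ± 1323 CPM. As a background, postmitotic cells held 1264 ± 237 and 1091 ± 153 CPM (neuron-like, vehicle and vismodegib) and 889 ± 72.3 CPM (Purkinje-like, WT). The neuron-like tumor cluster was led by Gabra6 and Cbln3, markers of granule neurons. These values were not tested.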
